A study of Mus musculus with 16 samples.

Results

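The comparison described here is that of VLX-1005, an inhibitor of 12-lipoxygenase (12-LOX), with vehicle in M1-like bone marrow–derived macrophages (BMDMs), which are macrophages grown from marrow cells. Its members were the libraries labelled M1, 4 with vehicle and 4 with VLX-1005, or 8 of the 16 RNA-seq libraries of the series. All cells were grown from marrow of female NOD.hALOX12 mice aged 8 weeks, a strain whose mouse Alox15 is replaced by human ALOX12, so that treated and control cells alike carry the exchange. They were kept for 7 days in M-CSF at 10 ng/mL. They were exposed to 0.1% DMSO (M1 vehicle) or 10 µM VLX-1005 (M1 VLX-1005) for 1 hour, and both groups were then stimulated with LPS (10 ng/mL) plus IFN-γ (25 ng/mL). The stimulation lasted 18 hours by the written methods but 24 hours by the drawn scheme. The other 8 libraries were unstimulated M0 cells, 4 with vehicle and 4 with VLX-1005. No source tells whether each of the 4 libraries in a group was made from its own mouse. The p-values therefore reflect variation among these libraries, which may be technical.

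LPS is sensed by Toll-like receptor 4 and acts through NF-κB and interferon regulatory factors, whereas IFN-γ acts through its own receptor and JAK kinases. Together they drive macrophages to an inflammatory state with chemokines, guanylate-binding proteins, antigen-processing genes and interleukins. 12-LOX adds oxygen to arachidonic acid and gives rise to the lipid mediator 12-HETE. The question of the comparison was whether inhibiting the enzyme during stimulation alters RNA levels.

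Interferon-responsive genes carry short binding sequences near their start, and 4 of the genes on which the comparison turns are shown with theirs. The 300-base windows (250 bases before the start to 50 after) are from RefSeq on GRCm38.p6 and are written 5′ to 3′ on the strand of the gene. Capitals mark the interferon-stimulated response element, searched on both strands as TTTC and TTTC (or GAAA and GAAA) with any 2 bases between them, in the first 3 genes. In Irf1 they mark the IFN-γ-activated sequence, searched as TTC and GAA with any 3 bases between them, which reads the same on both strands. Cxcl10 (chr5:92348840-92349139, minus strand) encodes a T cell-attracting chemokine, Gbp2 (chr3:142620413-142620712, plus strand) a guanylate-binding protein, Rsad2 (chr12:26456403-26456702, minus strand) the antiviral protein viperin, and Irf1 (chr11:53769764-53770063, plus strand) a transcription factor.
Cxcl10: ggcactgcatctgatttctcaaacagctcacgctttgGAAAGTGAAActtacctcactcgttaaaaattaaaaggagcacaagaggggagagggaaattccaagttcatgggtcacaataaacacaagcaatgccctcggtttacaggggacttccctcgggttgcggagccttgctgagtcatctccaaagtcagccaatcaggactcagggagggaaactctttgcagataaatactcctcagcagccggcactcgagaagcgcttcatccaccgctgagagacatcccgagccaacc
Gbp2: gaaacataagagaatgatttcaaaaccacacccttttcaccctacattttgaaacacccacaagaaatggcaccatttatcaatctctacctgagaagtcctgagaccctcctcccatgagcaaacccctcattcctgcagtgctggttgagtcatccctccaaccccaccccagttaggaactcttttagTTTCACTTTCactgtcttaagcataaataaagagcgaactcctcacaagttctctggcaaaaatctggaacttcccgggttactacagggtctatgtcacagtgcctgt
Rsad2: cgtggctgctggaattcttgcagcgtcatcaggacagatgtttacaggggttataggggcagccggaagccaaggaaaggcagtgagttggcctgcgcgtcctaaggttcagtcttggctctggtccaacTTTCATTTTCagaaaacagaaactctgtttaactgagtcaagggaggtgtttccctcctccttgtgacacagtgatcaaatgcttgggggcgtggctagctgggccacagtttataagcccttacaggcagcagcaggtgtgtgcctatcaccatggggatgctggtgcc
Irf1: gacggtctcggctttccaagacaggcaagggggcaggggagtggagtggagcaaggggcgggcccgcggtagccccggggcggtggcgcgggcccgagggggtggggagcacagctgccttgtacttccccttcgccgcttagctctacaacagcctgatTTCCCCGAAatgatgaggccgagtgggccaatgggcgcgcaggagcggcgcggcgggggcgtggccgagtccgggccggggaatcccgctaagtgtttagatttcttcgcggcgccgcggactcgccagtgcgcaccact
A second Irf1 start on the same strand (chr11:53770223-53770522) had neither motif in its window. No window shown held both motifs, so none of the marked matches overlap. The first motif was in 3.44% and the second in 8.3% of all 32851 promoter windows of this length. The first was found for 20 of the 37 type I interferon-stimulated genes with a window, for 11 of the 17 IFN-γ-induced genes and for 2 of the 26 inflammatory genes. A gene was counted when any of its windows held the motif, whereas the 3.44% is a share of single windows. A match describes the letters of the window and is not a measured site.

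Each row of the count table is a gene, and 3453 rows had enough counts to test. The M1 libraries held 939584 to 1122838 counts, and 97.04% to 97.2% of them lay in rows whose exons overlap a gene on the opposite strand. The libraries kept strand, but no source used here says how the counting treated it. Counts of such a row and of its opposite gene therefore cannot be told apart. Rows of a pair could differ widely, with a mean of 18.62 counts for Cxcl10 against 13387.5 for Art3, and 16.75 for Ftl1 against 99428.75 for Gm10252. The own row of a gene may thus not give its level, and which strand was counted was not tested. Most rows are for this reason named with their opposite gene, but a row named without one can still have one. On the first principal component of the 8 libraries (18.89% of variance) the mean of VLX-1005 libraries minus that of vehicle libraries was −3.33 (exact two-sided permutation p = 0.514, 70 labellings), and on the second (16.21%) it was 4.81 (exact p = 0.286, adjusted 0.514 for both). By number, the VLX-1005 library lay above its vehicle library on the second component in 4 of 4 pairs, although an exact two-sided test over 4 pairs cannot reach a p of 0.05. Library M1 VLX-1005 2 stood apart on the first, at −13.52 against −3.2 to 5.8 for the other 3 of its group. Some of the results that rest on it, but not all, are also given without it. Macrophage markers summed to 342 to 413 CPM (counts relative to the effective library size) with vehicle and 366 to 414 CPM with VLX-1005, with none of 15 at 0 in all M1 libraries, and 56.9% of the sum was Csf1r, whose row is opposite to Hmgxb3. At 0 in all 8 were 9 of 15 T cell markers (with Cd3d, Cd3e, Cd3g) and 9 of 12 B cell markers (with Ms4a1). So were 8 of 10 NK cell markers (with Ncr1) and 8 of 13 neutrophil markers (with Ly6g, S100a8). A row at 0 does not show that a cell type was absent, as the macrophage marker Cd68 had a mean of only 2.62 counts. Foxp3 of the T cell list had a mean of 126.75 counts. The T cell list still summed to 437 to 522 CPM with vehicle and 391 to 484 CPM with VLX-1005, 68.4% of it in Cd247, whose row is opposite to Pou2f1, and the dendritic cell list to 189 to 272 and 175 to 245 CPM, 93.9% of it in Xcr1.

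No row passed an adjusted p of 0.05 in edgeR's quasi-likelihood test (0% of 3453). The smallest adjusted p was 0.998, and without library M1 VLX-1005 2 there was also no call. Without adjustment 128 rows (3.71%) had p under 0.05, of which 74 were higher with VLX-1005 (2.14% of rows tested) and 54 lower (1.56%). DESeq2 and limma-voom also gave no call, with 95 (2.75%) and 107 (3.1%) rows at an unadjusted p under 0.05. The 4 VLX-1005 libraries did not overlap the 4 vehicle libraries in 68 rows (1.97%). The study's thresholds, a fold change over 2 with an unadjusted p under 0.05, took in 43 rows (1.25%), 26 higher and 17 lower. In BMDMs the study states them for M1 against M0 and for VLX-1005 in M0, with DESeq2, and not for this comparison. All 43 were sparsely counted, with a median of 5.25 and at most 15.9 counts per library. The median difference of all rows was −0.0032 on the log2 scale. In such bulk RNA a change in the share of a cell type and a change in RNA per cell cannot be told apart.

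How large a difference these libraries leave room for depended on the counts. A row is called well counted here when it had a mean of at least 50 counts over the 8 M1 libraries. There were 1438 such rows, which held 95.65% of the M1 counts. The 95% interval of the difference, taken from the edgeR fit row by row, had a median half-width of 0.24 on the log2 scale, or 1.18-fold. It lay within 1.25-fold in either direction for 743 rows (51.7%, holding 82.43% of the M1 counts), within 1.5-fold for 1331 rows (92.6%) and within 2-fold for 1430 rows (99.4%). With an interval widened for the 1438 rows by Bonferroni's correction, 528 lay within 1.5-fold. The median half-width narrowed from 2.12-fold for rows under 10 counts to 1.43-fold at 20 to 50 counts, 1.17-fold at 100 to 500 and 1.1-fold at 2000 or more. All 82 rows of 2000 or more counts had an interval within 1.5-fold. Only 52 well counted rows were known to have no opposite gene, and 40 of them lay within 1.5-fold. The annotation did not place 10 others. The 8 well counted rows whose interval reached beyond 2-fold were 1810049J17Rik, 4930539J05Rik, 4933440N22Rik, Basp1, Cnbd2, Gm16025, Gm17251 and Gm26526. All these intervals are from the fit of all 16 libraries, so they also take in the spread of the M0 libraries. In a fit of the M1 libraries alone on the same rows, all 1438 lay within 2-fold and 1384 within 1.5-fold. The median half-width in that fit was 0.224.

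**Figure D1:**
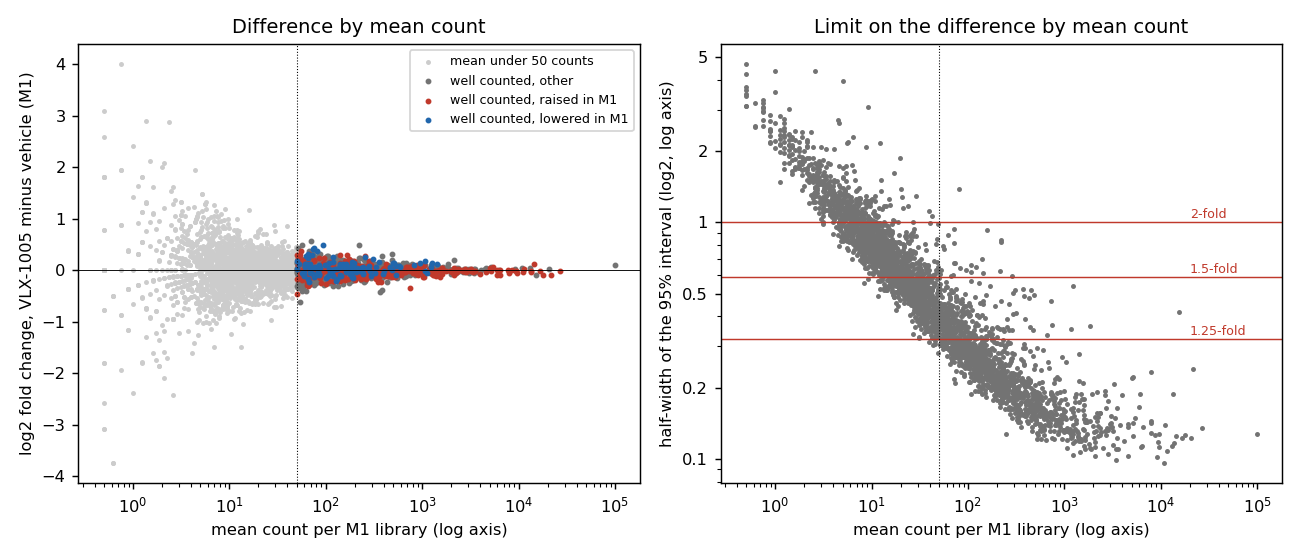
Left, log2 fold change of VLX-1005 minus vehicle in M1 for each of the 3453 rows tested against its mean count per M1 library (log axis), with well counted rows raised or lowered at least 2-fold by stimulation in color. Right, half-width of the 95% interval (log axis) against the same mean count for the 3428 rows with an interval, with lines at 1.25-fold, 1.5-fold and 2-fold. The dotted line marks 50 counts, to the right of which differences lay between −0.62 and 0.56 and the median half-width was 0.24.

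Stimulation itself moved many rows. Averaged over both treatments, M1 libraries were at least 2-fold above M0 libraries in 660 rows (19.1% of rows tested, adjusted p under 0.05 by edgeR), at least 8-fold above in 230 (6.66%) and at least 2-fold below in 784 (22.7%). This average does not involve the difference between VLX-1005 and vehicle. Of the raised rows 320 were well counted, and their median difference between VLX-1005 and vehicle was −0.0173 (log2), beside −0.0071 for the 1006 well counted rows in neither class. None of the 320 had an unadjusted p under 0.05, 2 had groups that did not overlap, and 286 (89.4%) had an interval within 1.5-fold. With same-numbered M1 libraries paired by a replicate block, 11 of them were higher and 14 lower at an unadjusted p under 0.05. The blocked fit gave more such rows elsewhere too. Of the 1006 rows in neither class 34 were higher and 16 lower, and 172 of all 3453 rows tested had such a p. Without the block but with library M1 VLX-1005 1 left out, 3 of the 320 were higher and 4 lower, beside none with all libraries. Among the 98 rows raised at least 8-fold the median was −0.0153, none had groups that did not overlap, and 82 (83.7%) lay within 1.5-fold. These small medians moved with single libraries, and the second changed sign: without library M1 VLX-1005 2 they were −0.004 for the 320 and 0.0155 for the 98, and without library M1 vehicle 3 −0.0023 and 0.0133.

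The chemokine gene Cxcl10 stood among the IFN-γ-induced genes with the most counts in its opposite row. Art3, the row opposite to Cxcl10, had 16490, 14160, 18300 and 13770 CPM with vehicle and 17140, 13160, 16830 and 14860 CPM with VLX-1005. The groups overlapped fully, and the fold change of 0.99 had a 95% interval of 0.867 to 1.13. The own row of Cxcl10 had only 17.5 to 29.5 CPM with vehicle and 12.5 to 27.8 CPM with VLX-1005 (log2 difference −0.21 ± 0.32, SE). Mir6381, the row opposite to Gbp2, had 6776, 6675, 7246 and 6752 CPM with vehicle and 7268, 5938, 6918 and 7459 CPM with VLX-1005, again with overlap (fold change interval 0.896 to 1.13). Gm17334, opposite to Irf1, had 4779, 4242, 5221 and 4757 CPM with vehicle and 4912, 3822, 4492 and 4875 CPM with VLX-1005 (interval 0.837 to 1.08). The ranges of both groups overlapped in each of the 3 genes, and in all 3 library M1 VLX-1005 2 was the lowest of its group. Of the IFN-γ-induced GTPases and chemokines, 15 of 28 genes were tested, none at an unadjusted p under 0.05 (3.71% of all rows), and 9 were higher and 6 lower. Their median difference was 0.116 beside −0.003 for all rows, and it was −0.017 over the 5 rows opposite to genes of the list. It also depended on single libraries, at −0.017 without M1 vehicle 2, 0.264 without M1 vehicle 3, −0.001 without M1 vehicle 4 and 0.001 without M1 VLX-1005 3.

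No type I interferon-stimulated gene passed the adjusted test. Gm44148, opposite to Usp18, which encodes the deubiquitinase-like brake on the type I interferon receptor, had 7926, 6927, 7776 and 6407 CPM with vehicle and 7649, 6118, 7297 and 6134 CPM with VLX-1005. The groups overlapped, with a log2 difference of −0.09 ± 0.09 (SE) and a fold interval of 0.822 to 1.07. It was lower in 4 of 4 same-numbered pairs, and with the replicate block within M1 the difference was −0.09 ± 0.03 (edgeR unadjusted p = 0.0105, adjusted p = 0.764). Ifit2, whose product binds viral RNA, has no opposite gene and had 536, 553, 668 and 454 CPM with vehicle and 607, 654, 561 and 383 CPM with VLX-1005 (interval 0.783 to 1.27). Rsad2, also without an opposite gene, had 314, 298, 294 and 203 CPM with vehicle and 323, 261, 257 and 199 CPM with VLX-1005 (interval 0.735 to 1.2). In both the fourth library was the lowest of each group. The rows of the paired genes Parp9 and Dtx3l, whose products act together in ADP-ribosylation and ubiquitination, differed by 0.02 ± 0.09 and 0.01 ± 0.09 on the log2 scale. Of 50 genes in the list 20 were tested, with a median of 0.014, 12 higher and 8 lower, and the 10 rows opposite to list genes had a median of −0.023. None of either had an unadjusted p under 0.05, and the intervals of the 10 opposite rows all lay within 1.5-fold. A930037H05Rik, opposite to the interferon-induced Rnf213, had the third most counts of all rows and an interval of 0.797 to 1.11.

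**Figure D2:**
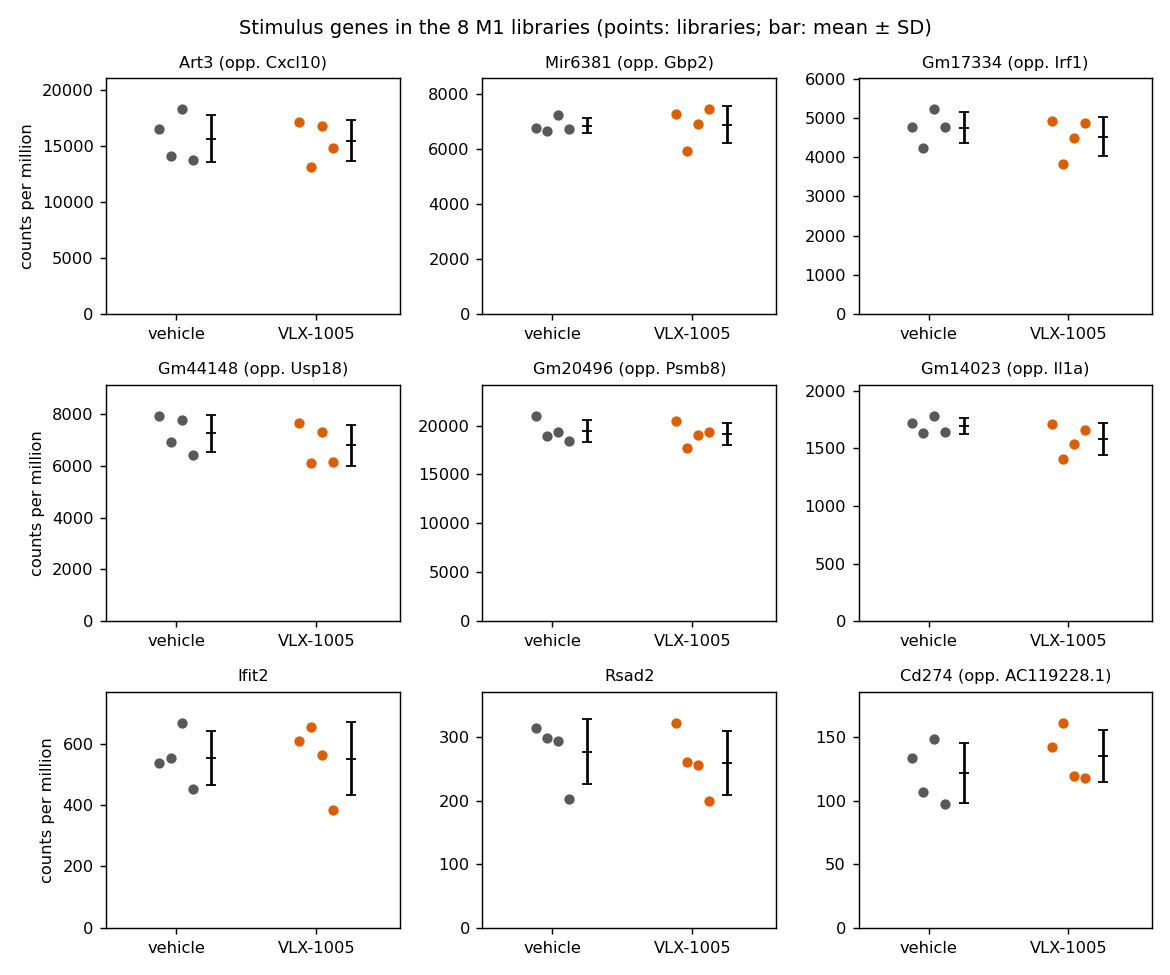
CPM (vertical axes) of 9 rows of interferon, antigen-processing, interleukin and checkpoint genes in the 8 M1 libraries, each panel from 0, with the row's opposite gene (opp.) in its title. Points are libraries and the bar is the mean ± SD of 4. Vehicle and VLX-1005 libraries overlap in all 9, as in Art3, opposite to Cxcl10, at 13770 to 18300 and 13160 to 17140.

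The study names 5 interferon genes, and none had enough counts to be tested. Raw counts in vehicle and VLX-1005 libraries were as follows. Oas1e, an oligoadenylate synthetase gene, had 3, 0, 0 and 3 against 1, 4, 2 and 1. Ttll12, a tubulin-ligase-like gene, had 3, 1, 5 and 4 against 8, 6, 16 and 6, without overlap. Adar, the RNA-editing adenosine deaminase, had 0, 1, 5 and 1 against 1, 4, 5 and 4. Gigyf2, a translational repressor, had 5, 2, 1 and 1 against 3, 1, 1 and 0, and the elastase gene Mmp12 0, 3, 0 and 0 against 1, 0, 0 and 0. These sums of 13 against 36 for Ttll12 and at most 14 in a group for the other 4 leave wide intervals. With no filter on low counts (17769 rows), the fold change interval was 1.16 to 6.53 for Ttll12 (unadjusted p = 0.0167, adjusted 0.798), 0.289 to 6.15 for Oas1e, 0.604 to 6.53 for Adar, 0.16 to 2.05 for Gigyf2 and 0.0324 to 5.24 for Mmp12. All 5 intervals reach beyond 2-fold in one direction or both, so a 2-fold difference was not excluded for any of the 5. Only the interval of Ttll12 left out 1, before adjustment. Chrnb2, the row opposite to Adar, was far better counted, at 3707, 3616, 4021 and 3574 CPM with vehicle and 3836, 3502, 3736 and 3655 CPM with VLX-1005. Its groups overlapped, and its fold interval was 0.913 to 1.07. Of the negative regulators of interferon signaling only 2 of 30 were tested, and the 5 rows opposite to genes of that list had a median of −0.026. Gm20531, opposite to the phosphatase gene Ptpn6, had an interval of 0.896 to 1.08.

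Genes that cut and load peptides for MHC class I were among the rows with the narrowest limits. Gm20496, opposite to the immunoproteasome gene Psmb8 and the peptide transporter gene Tap2, had 20980, 18970, 19380 and 18410 CPM with vehicle and 20500, 17660, 19000 and 19380 CPM with VLX-1005. The groups overlapped, and its fold interval was 0.904 to 1.07. Gm15821, opposite to Tap2, had an interval of 0.941 to 1.09, and Gm19412, opposite to the chaperone gene Tapbp, one of 0.91 to 1.07. The rows of the neighbors Psmb9 and Tap1, each opposite to the other, differed by 0.03 ± 0.09 and 0.04 ± 0.22. Of the antigen-processing list 13 of 30 genes were tested, 7 higher and 6 lower, with a median of 0.031. One of them had an unadjusted p under 0.05, the protein disulfide isomerase gene Pdia3, opposite to Catsper2, at 15, 14.7, 20.1 and 16.1 CPM with vehicle and 31.7, 25, 21.5 and 26.6 CPM with VLX-1005. Its groups did not overlap (log2 difference 0.67 ± 0.24, unadjusted p = 0.0121, edgeR adjusted p = 0.998), on a mean of 18.38 counts. Cd274, which encodes the checkpoint ligand PD-L1, is opposite to AC119228.1. It had 134, 107, 148 and 97.6 CPM with vehicle and 142, 161, 119 and 118 CPM with VLX-1005. The groups overlapped, and the fold interval was 0.854 to 1.45.

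The 3 best counted rows opposite to inflammatory M1 genes were close in both groups. Zmynd15, the row opposite to the chemokine gene Cxcl16, had 10420, 9780, 9989 and 10090 CPM with vehicle and 10870, 9624, 9806 and 10110 CPM with VLX-1005, with overlap and an interval of 0.919 to 1.09. Gm26584, opposite to the arginine transporter gene Slc7a2, had 5113, 5438, 5465 and 5703 CPM with vehicle and 5630, 4585, 5184 and 5838 CPM with VLX-1005 (interval 0.89 to 1.07). Gm14023, opposite to Il1a, had 1724, 1631, 1781 and 1642 CPM with vehicle and 1714, 1404, 1541 and 1658 CPM with VLX-1005 (interval 0.769 to 1.13). The ranges of all 3 overlapped. Limits were wider for Il1bos, opposite to Il1b (interval 0.548 to 1.25), and for the own row of Slc7a2 (0.581 to 1.16), both well counted. Less can be said of the best known M1 genes, whose own rows had few counts. Nos2, the inducible nitric oxide synthase gene, had 7.5 to 15 CPM with vehicle and 9.56 to 18.8 CPM with VLX-1005, with an interval of 0.859 to 2.71. Il1b had an interval of 0.6 to 1.6, Cxcl9 one of 0.846 to 1.82 and Acod1, the itaconate-making enzyme gene, one of 0.679 to 1.32. Of the 40 genes of the list 11 were tested, 6 higher and 5 lower, with a median of 0.042, and the 5 rows opposite to its genes had a median of −0.101. The first median was −0.084 without library M1 VLX-1005 3.

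Rows opposite to genes of the NF-κB pathway lay mostly below 0, by amounts that did not pass the test. Acaa1a, opposite to the Toll-like receptor adaptor gene Myd88, had 1326, 1362, 1250 and 1211 CPM with vehicle and 1228, 1044, 1159 and 1257 CPM with VLX-1005. Its groups overlapped (log2 difference −0.13 ± 0.07, unadjusted p = 0.0511). Psd, opposite to Nfkb2, had 1213, 1241, 1214 and 1273 CPM with vehicle and 1175, 998, 1140 and 1211 CPM with VLX-1005, without overlap when unrounded values were compared (−0.13 ± 0.09, unadjusted p = 0.156). Gm28914, opposite to the kinase gene Ikbke, differed by −0.17 ± 0.12 and Gm16175, opposite to the coregulator gene Bcl3, by −0.13 ± 0.12. Of 9 such rows 7 were lower and 2 higher, with a median of −0.127 and none at an unadjusted p under 0.05. Among the list's own rows 7 of 30 were tested, with a median of 0.067, so the rows chosen set the sign. The one with an unadjusted p under 0.05 was Card14 (0.29 ± 0.11, edgeR unadjusted p = 0.0154, adjusted 0.998), which is opposite to the lysosomal gene Sgsh.

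**Figure D3:**
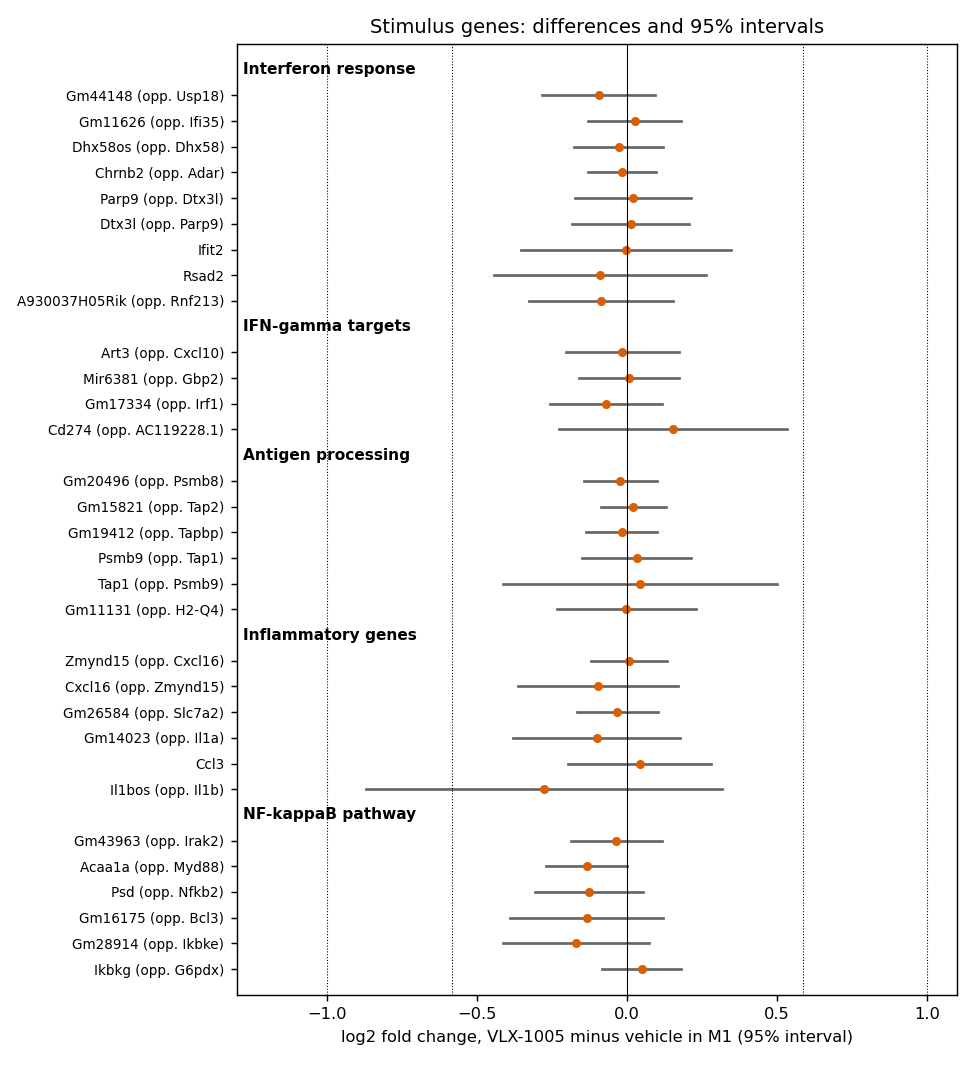
Log2 fold change of VLX-1005 minus vehicle in M1 (points) with its 95% interval (bars) for 31 rows grouped by role, with the opposite gene in brackets. Dotted lines mark 1.5-fold and 2-fold in either direction. The interval of Il1bos, opposite to Il1b, reaches below 1.5-fold, to a fold of 0.548, and all others stay inside.

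Of the 12-LOX and eicosanoid genes few could be measured. Alox15, absent by design, had 0 counts in all 8 libraries. Alox12 had 3 counts in the vehicle and 7 in the VLX-1005 libraries, and human ALOX12 was not analysed here. Of the 41 genes of the list 5 were tested. Ptger4, which encodes the prostaglandin E2 receptor EP4, is opposite to Gm15937 and Ttc33. It had 53.8, 66.3, 72.4 and 107 CPM with vehicle and 96.3, 92.5, 100 and 101 CPM with VLX-1005. The fourth vehicle library lay above all VLX-1005 libraries and the other 3 below them (log2 difference 0.37 ± 0.16, unadjusted p = 0.0265, edgeR adjusted p = 0.998). Without the fourth vehicle library the difference was 0.6. Ptgs2, the inducible cyclooxygenase gene, had 32.2 to 50.1 CPM with vehicle and 49.2 to 52.6 CPM with VLX-1005 (0.26 ± 0.22). Gm19719, opposite to Alox5ap, whose product hands arachidonic acid to 5-lipoxygenase, had 1634, 1932, 1429 and 1437 CPM with vehicle and 1716, 2156, 1656 and 1474 CPM with VLX-1005, with overlap. Its difference was 0.12 ± 0.1 and went from 0.01 without library M1 VLX-1005 2 to 0.23 without library M1 vehicle 2. 1700071M16Rik, opposite to the phospholipase gene Pla2g7, had an interval of 0.944 to 1.16.

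The M1 libraries of the same number deviated together, and a fit of the 8 M1 libraries with the number as a block (3 residual degrees of freedom), chosen after the data were seen, gave 1 call (0.029% of rows tested). The row was Gm26902, a noncoding RNA gene on chromosome 19 (34474808 to 34481546, plus strand, mm10) annotated as a bidirectional-promoter transcript and opposite to Ch25h, the gene of the cholesterol hydroxylase that makes 25-hydroxycholesterol in interferon-treated macrophages. Gm26902 had 1188, 800, 1017 and 879 CPM with vehicle and 1110, 520, 592 and 824 CPM with VLX-1005. Each VLX-1005 library lay below the vehicle library of its number, while the 2 groups overlapped. The blocked log2 difference was −0.37 ± 0.07 (edgeR adjusted p = 0.0327), and without the block −0.35 ± 0.18 (adjusted p = 0.998), or −0.58 when library M1 VLX-1005 1 was left out. The call was lost when pair 2 (adjusted p = 0.408) or pair 3 (adjusted p = 1) was left out, with the block over all 16 libraries (adjusted p = 0.995), with a block within M1 and within M0 (adjusted p = 0.434), in limma-voom with the block (adjusted p = 0.607) and in DESeq2 with the block (adjusted p = 1). Ch25h itself had 41.3, 28.2, 52.4 and 47.2 CPM with vehicle and 36.1, 26.3, 23.9 and 16.2 CPM with VLX-1005, also lower in 4 of 4 pairs with overlapping groups (−0.72 ± 0.31 without the block, unadjusted p = 0.0281). Reads of the 2 genes cannot be told apart, so the rows are not independent measures. Of the 8 lipid and cholesterol synthesis genes tested in 42, 3 were higher and 5 lower, and Ch25h was the one with an unadjusted p under 0.05.

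In the same blocked fit the row opposite to a ferritin gene came close to the threshold, while the ferritin genes' own rows did not. Gm10252, whose opposite gene Ftl1 encodes ferritin light chain, held the most counts of any row and had 119100, 115300, 109400 and 104400 CPM with vehicle and 118500, 130300, 122100 and 111100 CPM with VLX-1005. The VLX-1005 library was higher in 3 of 4 pairs, and the groups overlapped. The difference was 0.11 ± 0.06 without the block (unadjusted p = 0.0993, adjusted 0.998) and 0.11 ± 0.02 with it (edgeR adjusted p = 0.0522), so at most 1.18-fold by the unblocked interval. The blocked call for Gm10252 was reached without pair 1 (adjusted p = 8.41e-06) or pair 4 (adjusted p = 0.0036), but not without pair 2 (adjusted p = 0.93) or pair 3 (adjusted p = 1). Fth1, the ferritin heavy chain gene, has no opposite gene and had 324, 248, 264 and 249 CPM with vehicle and 303, 274, 367 and 369 CPM with VLX-1005. It too was higher in 3 of 4 pairs with overlapping groups (0.28 ± 0.13, unadjusted p = 0.0526, fold interval 0.998 to 1.47, blocked edgeR adjusted p = 0.667). Of the 6 iron-handling genes tested 5 were higher and 1 lower, and only 1 was well counted. The 4 rows opposite to genes of that list were 2 higher and 2 lower, with a median of 0.011. The own row of Ftl1 had a mean of 16.75 counts and differed by 0.31 ± 0.33, or by 0.68 without library M1 vehicle 1 (blocked edgeR adjusted p = 0.974). Gm26778, opposite to Kctd12, had 16010, 14530, 16220 and 17450 CPM with vehicle and 17340, 16120, 17890 and 18590 CPM with VLX-1005, higher in 4 of 4 pairs. Its blocked adjusted p was 0.0522 in edgeR and 0.00314 in limma-voom, where it was the only call, and its difference was 0.13 ± 0.03 with the block. The edgeR adjusted p of Gm26778 was 0.998 without the block, 0.995 with it over all 16 libraries and 0.434 with it within M1 and within M0. In the blocked M1 fit it was 0.0237 without pair 1, 0.0261 without pair 4 and 0.361 without pair 2. Neither DESeq2 with the block nor the fit without pair 3 called this row. Of the other redox genes, Gm16754, opposite to Keap1, the sensor that restrains the oxidant response, had an interval of 0.852 to 1.02, Gtf2ird2, opposite to the NADPH oxidase subunit gene Ncf1, one of 0.873 to 1.06, and Gm15441, opposite to the thioredoxin inhibitor gene Txnip, one of 0.882 to 1.06. Of 15 tested redox genes 7 were higher and 8 lower, none at an unadjusted p under 0.05.

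**Figure D4:**
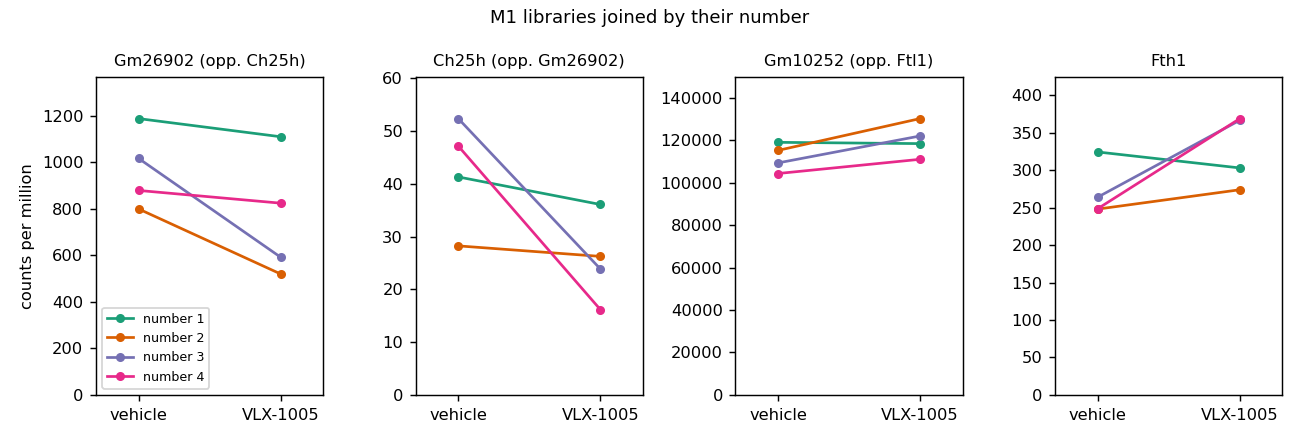
CPM (vertical axes) of Gm26902, Ch25h, Gm10252 and Fth1 in the M1 libraries, each panel from 0, with lines joining the vehicle and VLX-1005 libraries of the same number. All 4 lines go down in the 2 panels on the left, and 3 of 4 go up in each of the 2 on the right.

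The 112 well counted rows lowered at least 2-fold had a median difference of 0.0512, 72 higher and 40 lower with VLX-1005. Of these 112, 7 were higher and 1 lower at an unadjusted p under 0.05 (7.14%, beside 2.23% of all well counted rows), and 3 of the 4 with groups that did not overlap were higher (1.53% of all well counted rows did not overlap). Library M1 VLX-1005 2 had part in this: without it the median was 0.0157, with 4 higher and 2 lower. The tilt was also smaller over all 784 lowered rows, whose median was 0.014. Of these 784, 35 were higher and 25 lower at an unadjusted p under 0.05 (7.65%, beside 3.71% of all rows tested). With the replicate block within M1, 17 of the 112 rows were higher and none lower at an unadjusted p under 0.05, with a median of 0.0551. In the same blocked fit 34 of the 1006 well counted rows in neither class were higher and 16 lower. Of all 3453 rows tested, 172 had an unadjusted p under 0.05 in that fit. Galnt6os, opposite to Galnt6, had 75.1, 102, 93.6 and 95.4 CPM with vehicle and 96.3, 186, 110 and 127 CPM with VLX-1005. The second VLX-1005 library was the highest, and the difference was 0.5 ± 0.16, or 0.28 without it. Gm45411, opposite to the motor adaptor gene Hook3, had 80.1, 72.5, 76.9 and 68.6 CPM with vehicle and 116, 88.8, 94.4 and 102 CPM with VLX-1005. Here the groups did not overlap (0.43 ± 0.11, unadjusted p = 0.000963, edgeR adjusted p = 0.998). 4931431C16Rik, opposite to the peroxisomal oxidase gene Acox3, differed by 0.27 ± 0.09 and Gm26694, opposite to Metrn among others, by 0.31 ± 0.13. Gngt2, opposite to Abi3, differed by 0.41 ± 0.16 and Krr1, opposite to Glipr1, by 0.17 ± 0.08, or by 0.21 and 0.06 without library M1 VLX-1005 2. The 1 lower row of the 112 was Foxp3, opposite to Ccdc22 among others. It had 164, 162, 154 and 153 CPM with vehicle and 151, 134, 127 and 138 CPM with VLX-1005, without overlap (−0.2 ± 0.09, unadjusted p = 0.039).

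Lysosomal genes, which digest what macrophages engulf, had more rows at a small p than other lists. Of 23 genes tested in 30, 4 were higher and 1 lower at an unadjusted p under 0.05 (3.71% of all rows), all 5 on means under 50 counts, and none passed the adjusted test. Of the whole list 15 were higher and 8 lower, with a median of 0.123, and among 9 rows opposite to its genes 8 were higher, with a median of 0.089. Ctsb, the cathepsin B gene, had 42.6, 27, 34.5 and 36.5 CPM with vehicle and 51.4, 52.5, 59.7 and 43.9 CPM with VLX-1005. The groups did not overlap (0.56 ± 0.24, unadjusted p = 0.029, adjusted 0.998). Its opposite row Fdft1, which is a cholesterol synthesis gene, had 1027, 929, 862 and 848 CPM with vehicle and 994, 968, 999 and 998 CPM with VLX-1005, with overlap and a smaller difference of 0.11 ± 0.07. Ctsa, the cathepsin A gene, had 1611, 1338, 1480 and 1250 CPM with vehicle and 1492, 1807, 1571 and 1435 CPM with VLX-1005 (0.15 ± 0.09), and its opposite row Pltp differed by 0.14 ± 0.07 (unadjusted p = 0.0515). The groups overlapped in both. Lamp1, a membrane protein gene, differed by 0.82 ± 0.38 on a mean of 8.62 counts, while its opposite row Grtp1, with 12260 to 12590 CPM in the vehicle and 12490 to 13060 CPM in the VLX-1005 libraries, differed by 0.04 ± 0.05. Laptm5 and Atp6v1a differed by 1.11 ± 0.5 and 1.26 ± 0.6 on means of 4.75 and 6.88 counts. Cd68, the lysosomal glycoprotein used as a macrophage marker, was the lower one, with 3.76, 6.14, 5.57 and 5.36 CPM against 0, 2.5, 1.19 and 0 CPM, on a mean of 2.62 counts (−2.42 ± 0.86, unadjusted p = 0.00233). Its size depended on the setting, at −1.36 with a prior count of 2 and −3.42 without library M1 VLX-1005 2.

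Other groups of genes had narrow limits in their best counted rows. In glycolysis Fam57b, opposite to the aldolase gene Aldoa, had 16920, 16880, 15400 and 15080 CPM with vehicle and 16400, 15980, 14930 and 15450 CPM with VLX-1005, with overlap and an interval of 0.9 to 1.06. Gm15283, opposite to the hypoxia factor gene Hif1a, had an interval of 0.913 to 1.09 and Gm12868, opposite to the glucose transporter gene Slc2a1, one of 0.861 to 1.03. All 7 rows opposite to glycolysis genes were below 0, with a median of −0.036 and none at an unadjusted p under 0.05, whereas 6 of the 9 own rows were above 0. Among ER chaperones, 1810014B01Rik, opposite to Hsp90b1, had an interval of 0.95 to 1.09, and Erp29, opposite to Naa25 and Tmem116, one of 0.87 to 1.09. One row opposite to a gene of the ER stress list had an unadjusted p under 0.05, Tulp2, opposite to Ppp1r15a among others (−0.34 ± 0.15, edgeR unadjusted p = 0.0325, adjusted p = 0.998). Csf1r, the M-CSF receptor gene, opposite to Hmgxb3, had 215, 200, 203 and 241 CPM with vehicle and 252, 200, 201 and 226 CPM with VLX-1005, with overlap (interval 0.892 to 1.17). Of 12 tested genes of resting or alternatively activated macrophages 9 were higher and 3 lower, none at an unadjusted p under 0.05. Proliferation (7 genes tested), inflammasome and cell death (7), checkpoint and costimulation (7) and xenobiotic metabolism (1) had no own row at an unadjusted p under 0.05. Of the 8 early response genes tested 1 had one, the transcription factor gene Klf6, at 42.6, 38.1, 27.9 and 25.7 CPM with vehicle and 48.1, 52.5, 39.4 and 54.3 CPM with VLX-1005 (0.54 ± 0.23, edgeR unadjusted p = 0.0303, adjusted p = 0.998). Its groups overlapped.

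The 10 rows of smallest p were 7 higher and 3 lower with VLX-1005, beside 1701 higher and 1752 lower of all rows tested. Stimulation lowered 7 of the 10 at least 2-fold, beside 22.7% of all rows tested. Only 1 of the 10, Gm45411, was well counted. The first was Gm16240, opposite to Dip2a, with 21.3, 20.9, 24.5 and 35.4 CPM with vehicle and 51.4, 37.5, 45.4 and 40.5 CPM with VLX-1005, without overlap (0.77 ± 0.2, unadjusted p = 0.000899, edgeR adjusted p = 0.998). Gm26751, opposite to Nynrin, had 25, 23.3, 26.7 and 21.4 CPM with vehicle and 29.5, 63.8, 46.6 and 39.3 CPM with VLX-1005, also without overlap (0.88 ± 0.24). Qars, the glutaminyl-tRNA synthetase gene, had 10, 22.1, 32.3 and 24.7 CPM with vehicle and 4.38, 17.5, 3.58 and 6.94 CPM with VLX-1005, with overlap (−1.48 ± 0.42). Of the others Gm47512, Gm14198, Tnfsf13os and Pigp were higher and Cd68 and Dot1l lower. Among well counted rows the lowest difference was that of Gm26526, opposite to Gm2058, at −0.62 ± 0.2. It had 88.9, 81.1, 74.7 and 63.2 CPM with vehicle and 49.2, 38.8, 40.6 and 70.5 CPM with VLX-1005. The fourth VLX-1005 library lay among the vehicle libraries. The highest was that of 4933440N22Rik, opposite to the splicing factor gene Hnrnpf, at 0.56 ± 0.39, with 67.6, 54, 75.8 and 69.7 CPM with vehicle and 103, 95, 111 and 86.7 CPM with VLX-1005. Its groups did not overlap, but its interval ran from 0.84-fold to 2.6-fold.

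The same test in the M0 libraries also gave no call (0% of 3453), with 103 rows (2.98%) at an unadjusted p under 0.05. The difference between the effect of VLX-1005 in M1 and in M0 was tested directly and gave no call either (0%), with a smallest adjusted p of 1 and 148 rows (4.29%) at an unadjusted p under 0.05. With a block within M1 and within M0, chosen after the data were seen, 1 row passed, Gm10602, opposite to Inppl1 and to the folate receptor gene Folr2 of resident macrophages. It had 1110, 1050, 1020 and 1090 CPM in the M1 vehicle and 1150, 1350, 1200 and 1020 CPM in the M1 VLX-1005 libraries, with overlap (log2 difference 0.15), and 5200, 4730, 4970 and 4480 CPM in the M0 vehicle and 4160, 3690, 4250 and 3960 CPM in the M0 VLX-1005 libraries, without overlap (−0.27). The M1 effect minus the M0 effect was 0.41 ± 0.07 with that block (edgeR adjusted p = 0.0221) and 0.42 ± 0.1 without it (unadjusted p = 0.000492).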

How the data were processed

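BMDM RNA-seq libraries were grouped by the submitters' labels. The deposited table holds raw, unfiltered counts per gene, which the authors obtained with HISAT2 (mm10) and HTSeq-count. The submitters' processing notes list Trimmomatic, FastQC and DESeq2 as well. Sources used here give neither tool versions nor the authors' annotation. GENCODE vM21 placed all but 382 of the 48440 rows, and those 382 held 0.4699% of counts.

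Low rows were dropped with filterByExpr by group, and library sizes were scaled by TMM. A quasi-likelihood model in edgeR 4.0.16 (R 4.3.3, prior count 0.125) was fitted to all 16 libraries, with 12 residual degrees of freedom, and adjusted by Benjamini-Hochberg over 3453 rows. Standard errors and 95% intervals are Wald values of that fit. They rest on its moderated dispersions, cover each row alone and could not be computed for 25 rows. CPM are per effective library size, so levels of different genes are not compared. Alternative tests were run in DESeq2 1.42.0 and in limma-voom (limma 3.58.1). Principal components used the 500 most variable rows (prior count 2). Libraries of a group differed beyond counting noise, with a chi-square of 2.72 to 4.74 for each degree of freedom. Scripts were tested on simulated counts.

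Replicate numbers come from the sample titles. Deviations of same-numbered M1 vehicle and M1 VLX-1005 libraries correlated at 0.226, 0.199, 0.132 and 0.184 over 1678 rows, each best with its own number, so the numbers were taken as pairs within M1. In M0 one pair reached only 0.0676.

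Named rows were the 5 interferon genes of the study, the 10 smallest p, the 6 largest differences each way among well counted rows, the 10 rows of highest CPM, the 4 of highest CPM in each of 20 gene lists and 9 marker lists, and set stimulus genes with their opposite rows. The members, lists and comparisons were chosen with earlier results of these data known. The rows opposite to list genes, the rows named from p-values within a list or from stimulation, and the blocked fits within M1 were chosen after seeing the data. The other alternatives were other normalizations and filters, the M1 libraries alone, a block over all libraries, other thresholds and leaving out each library. Figures were drawn with matplotlib.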

Additional observations from a re-analysis of the deposited data

Results flagged for a closer look

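Within a group of 4 libraries, 1 library stood far from the other 3 in 11 of 208 groups checked by Dixon's test at 95%. Chance alone marks about 1 in 20 groups. All values are CPM. In M1 VLX-1005 2, Erp29 was at 1570 against 1870 to 1910 in the other 3, Fdft1 at 968 against 994 to 999, Gngt2 at 139 against 82 to 90.8, Tnfsf13os at 78.8 against 62.4 to 63.4 and Pigp at 11.3 against 2.39 to 3.47. In M1 VLX-1005 1, Psmb9 was at 717 against 626 to 635 and Tap1 at 120 against 124 in each of the others. In M1 VLX-1005 4, Pltp was at 549 against 640 to 657. In M1 vehicle 1, Gm11131, opposite to H2-Q4, was at 10100 against 8780 to 8970 and Gm14198 at 23.8 against 15 to 16. In M1 vehicle 2, Gm17251 was at 82.3 against 238 to 264.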

How the results depend on the processing

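No row passed the adjusted test under other normalizations and filters, DESeq2, limma-voom, the M1 libraries alone, the replicate block over all 16 libraries (0 calls) or with any 1 library left out (0 to 0 calls). The replicate block within the 8 M1 libraries gave 1 call, limma-voom with that block 1, and DESeq2 with it 0. With a pair left out it gave 14 (without pair 1), 2, 3 and 5 calls, the cause of which was not tested. The replicate block within M1 and within M0 gave 0 calls for M1 and 1 for the interaction. Rows with an unadjusted p under 0.05 numbered 605 with no low-count filter, 50 among rows with a mean of at least 50 counts over all 16 libraries (well counted rows are defined over the M1 libraries alone), 23 among rows with no opposite gene and 110 to 165 with a library left out. A fold change over 2 with an unadjusted p under 0.05 was met by 503 rows with no filter, 3 at that 16-library mean, 18 with no opposite gene, 6 in the M1 libraries alone with their own filter (35 in the M1 libraries on the rows of the 16-library fit), 25 with the replicate block within M1, 87 at a fold of 1.5 and 48 to 66 with a library left out (66 without M1 VLX-1005 1). In the refit of rows with no opposite gene, all 52 well counted rows lay within 2-fold and 37 within 1.5-fold (40 in the fit of all rows), with a median half-width of 0.392 (0.348 in the fit of all rows). Bonferroni intervals had a median half-width of 0.6 and left 528 rows within 1.5-fold. With a library left out, 1413 to 1439 rows lay within 2-fold and 1267 to 1313 within 1.5-fold, the half-width was 0.257 to 0.261, and the difference on the first component ran from −6.5 to 1.97 and on the second from 1.32 to 9.28. Of 1928 alternative values for 102 named rows, 1908 stayed within the standard error, 19 moved and 1 became a call (Gm26902). Of 395 list medians 28 moved by more than the spread between libraries, and 0 of these values had been a call. Depth limits what can be said of rows under 50 counts.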
